A study of Arabidopsis thaliana with 9 samples.

Results

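The genes described here are the late genes of anthocyanin synthesis and the transcription factors that control them in Arabidopsis thaliana, 10 genes chosen by locus identifier out of 33602 in the deposited count table. Of the 10, 5 are structural genes that make, decorate or move the pigment (DFR, LDOX, UGT79B1, UGT75C1 and TT19), 4 are activators (PAP1, PAP2, MYB113 and TT8) and 1 is a repressor (MYBL2). Polyadenylated RNA was sequenced from whole seedlings 6 days old, grown in liquid MS medium with sucrose. Each of 3 groups was sequenced as 3 libraries, described in the design text as biological replicates. Col-0 seedlings treated with 5 µM jasmonate for 3 h form the JA WT group, Col-0 seedlings given ethanol diluted 5000-fold form mock WT, and lhp1 mutant seedlings given the same diluted ethanol form mock lhp1. The labels give the mutant as lhp1, the column names of the table give it as lhp1-3, and both genotypes shared the medium and the age. Because the RNA came from whole seedlings, fewer cells of a type and less RNA per cell cannot be told apart.

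Anthocyanins are red to purple flavonoid pigments of the vacuole. In Arabidopsis the late steps are switched on by a complex of a MYB protein (PAP1, PAP2, MYB113 or MYB114), a bHLH protein (TT8, GL3 or EGL3) and the WD-repeat protein TTG1, while MYBL2 joins the bHLH partner and blocks the complex. Jasmonate is known to raise anthocyanin in seedlings, and the JAZ repressors that it removes bind both the MYB and the bHLH partners, whereas LHP1 is a chromodomain protein of Polycomb silencing.

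Library totals ranged from 18081553 to 31454984 counts, with the lowest totals in mock lhp1, and levels are given as CPM, library-size-scaled counts whose TMM factors ran from 0.9109 to 1.104. Group means of the check genes went with the labels, and 1 library that stood apart is described below. LHP1 RNA averaged 17.8 CPM in mock WT and 9.43 CPM in mock lhp1. The jasmonate marker JAZ10 averaged 2.91 CPM in mock WT and 104 CPM in JA WT. A further jasmonate marker, VSP2, stood at 0.918 CPM in mock WT and 53.5 CPM in JA WT. The shoot markers RBCS1A, CAB2, ATML1 and PDF1 and the root markers CASP1, EXPA7 and COBL9 were measured in every library. Floral genes were measured in every library too, so this presence does not test the seedling label. One library stood apart, mock WT replicate 2, with 94.6 CPM of the floral gene SEP3 against 27.8 and 26.4 CPM in the other mock WT libraries and 156 to 159 CPM in mock lhp1. The floral genes AP3 and AG were at 16.4 and 5.67 CPM in it, against at most 0.544 and 1.09 CPM in the other mock WT libraries. Mock lhp1 had 28.8 to 30.2 CPM of AP3 and 10.7 to 12 CPM of AG. LHP1 was at 13.9 CPM in mock WT replicate 2, 20.7 and 18.6 CPM in the other mock WT libraries and 8.33 to 10.2 CPM in mock lhp1. Results without mock WT replicate 2 are given where they differ. Genes were tested with edgeR's quasi-likelihood test over 20986 genes that passed a filter on low counts, and a gene is called at a Benjamini-Hochberg adjusted p below 0.05. Log2 fold changes are followed by ± their standard error, an approximation from the F statistic. The p-values measure the spread between these libraries, taken as 1 value per gene shared by the 3 groups. That spread was unequal and was largest among the mock WT libraries. PAP2 did not pass the filter, and PAP1 and MYB113 passed it through their JA WT libraries alone, so the counts below cover 9 genes, 7 of which would have passed without JA WT.

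The structural genes lie on chromosomes 4 and 5, and the DNA just upstream of them is shown because they moved together. Each window is the 250 bases before the RefSeq gene start, read from TAIR10.1 5′ to 3′ on the strand of the gene, with ANCNNCC, the MYB-recognising element described for anthocyanin promoters, in capitals on either strand. Overlapping matches run into one another. The windows are at chr5:17166033-17166282 (minus strand) for DFR, chr4:12006210-12006459 (minus) for LDOX, chr5:21938397-21938646 (minus) for UGT79B1, chr4:8123836-8124085 (minus) for UGT75C1 and chr5:5658166-5658415 (plus) for TT19.
DFR: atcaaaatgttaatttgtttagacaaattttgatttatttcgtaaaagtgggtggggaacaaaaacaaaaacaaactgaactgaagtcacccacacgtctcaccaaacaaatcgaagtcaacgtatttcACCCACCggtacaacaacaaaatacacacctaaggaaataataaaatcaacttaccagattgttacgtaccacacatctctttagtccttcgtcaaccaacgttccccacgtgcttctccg
LDOX: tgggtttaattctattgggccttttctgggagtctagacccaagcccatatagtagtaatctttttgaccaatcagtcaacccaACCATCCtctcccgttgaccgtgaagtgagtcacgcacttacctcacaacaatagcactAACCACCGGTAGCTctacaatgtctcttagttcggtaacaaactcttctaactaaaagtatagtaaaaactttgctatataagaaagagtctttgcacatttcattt
UGT79B1: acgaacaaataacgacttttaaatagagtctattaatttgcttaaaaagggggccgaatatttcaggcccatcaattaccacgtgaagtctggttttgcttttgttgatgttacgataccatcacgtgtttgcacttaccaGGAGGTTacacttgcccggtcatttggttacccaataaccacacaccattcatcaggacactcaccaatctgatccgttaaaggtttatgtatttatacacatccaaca
UGT75C1: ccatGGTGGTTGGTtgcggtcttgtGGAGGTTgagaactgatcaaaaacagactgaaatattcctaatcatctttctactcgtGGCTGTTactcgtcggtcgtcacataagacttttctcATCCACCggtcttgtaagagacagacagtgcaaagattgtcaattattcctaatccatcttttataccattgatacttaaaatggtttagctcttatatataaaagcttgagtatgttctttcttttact
TT19: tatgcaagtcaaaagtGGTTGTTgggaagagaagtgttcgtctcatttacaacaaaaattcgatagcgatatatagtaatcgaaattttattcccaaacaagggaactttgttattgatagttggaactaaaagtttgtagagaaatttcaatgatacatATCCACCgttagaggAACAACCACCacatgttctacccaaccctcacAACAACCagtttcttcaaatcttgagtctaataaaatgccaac

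The element ANCNNCC stood in all 5 structural windows, with 1 match in DFR, 3 in LDOX, 1 in UGT79B1, 5 in UGT75C1 and 5 in TT19. It is a short and common pattern, found on either strand in 48.8% of 27437 windows of this length before RefSeq genes. The G-box CACGTG, to which MYC factors of jasmonate signaling bind, stood once in the DFR window and at 2 places in the UGT79B1 window, and in 6.49% of all windows. The wider bHLH pattern CANNTG, which includes the G-box, stood in 3 of the 5 structural windows and 55.3% of all windows. LDOX, UGT75C1 and TT19 had no CACGTG in these windows. Among 6 early flavonoid genes, described below, 5 had ANCNNCC and 3 had CACGTG in such a window. Neither pattern was thus particular to the late genes. A match is a description of letters and does not show binding.

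All 5 structural genes were higher after jasmonate, each by 4.97-fold to 7.40-fold. DFR (AT5G42800, chr5:17164093-17166032, minus strand, 6 exons) encodes dihydroflavonol reductase, the first step after the branch from flavonols. In mock WT it had 1.93, 1.91 and 1.40 CPM (replicates 1 to 3), and in JA WT 12.2, 14.8 and 11 CPM. Every JA WT library lay far above every mock WT library, and the log2 fold change was 2.85 ± 0.17 (edgeR adjusted p = 4.2e-07, 95% interval 2.49 to 3.22). LDOX (AT4G22880, chr4:12004726-12006209, minus strand, 2 exons) encodes the dioxygenase that turns leucoanthocyanidin into the coloured anthocyanidin. Its values were 2.72, 1.73 and 1.89 CPM in mock WT and 14.9, 15.2 and 10.7 CPM in JA WT. The groups did not overlap (2.69 ± 0.19, edgeR adjusted p = 2.12e-06).

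The glycosyltransferases and the transport gene followed in the same range. UGT79B1 (AT5G54060, chr5:21936746-21938396, minus strand, 1 exon) adds xylose to the glucose on the anthocyanidin, and stood at 0.754, 1.16 and 0.490 CPM in mock WT against 5.44, 7.46 and 4.57 CPM in JA WT. UGT75C1 (AT4G14090, chr4:8122188-8123835, minus strand, 1 exon) adds glucose at another position of the pigment, and stood at 1.34, 2.02 and 1.24 CPM in mock WT against 8.40, 8.39 and 6.33 CPM in JA WT. Both genes had no overlap between the groups, with changes of 2.84 ± 0.29 (edgeR adjusted p = 3.91e-05) and 2.31 ± 0.22 (edgeR adjusted p = 2.73e-05). TT19 (AT5G17220, chr5:5658416-5659661, plus strand, 3 exons), named GSTF12 in RefSeq, encodes a glutathione transferase needed to bring the pigment to the vacuole. Its mock WT values were 0.754, 1.01 and 0.490 CPM and its JA WT values 6.39, 5.79 and 4.71 CPM, a change of 2.89 ± 0.24 (edgeR adjusted p = 8.59e-06). Summed over the 5 genes, the level was 7.49, 7.84 and 5.51 CPM in mock WT and 47.3, 51.6 and 37.3 CPM in JA WT. All 5 rises were called in each of the 15 alternative analyses. UGT75C1 and TT19 overlap genes on the opposite strand over 230 and 108 of their exon bases, and the sources used here do not say whether reads were counted by strand.

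**Figure D1:**
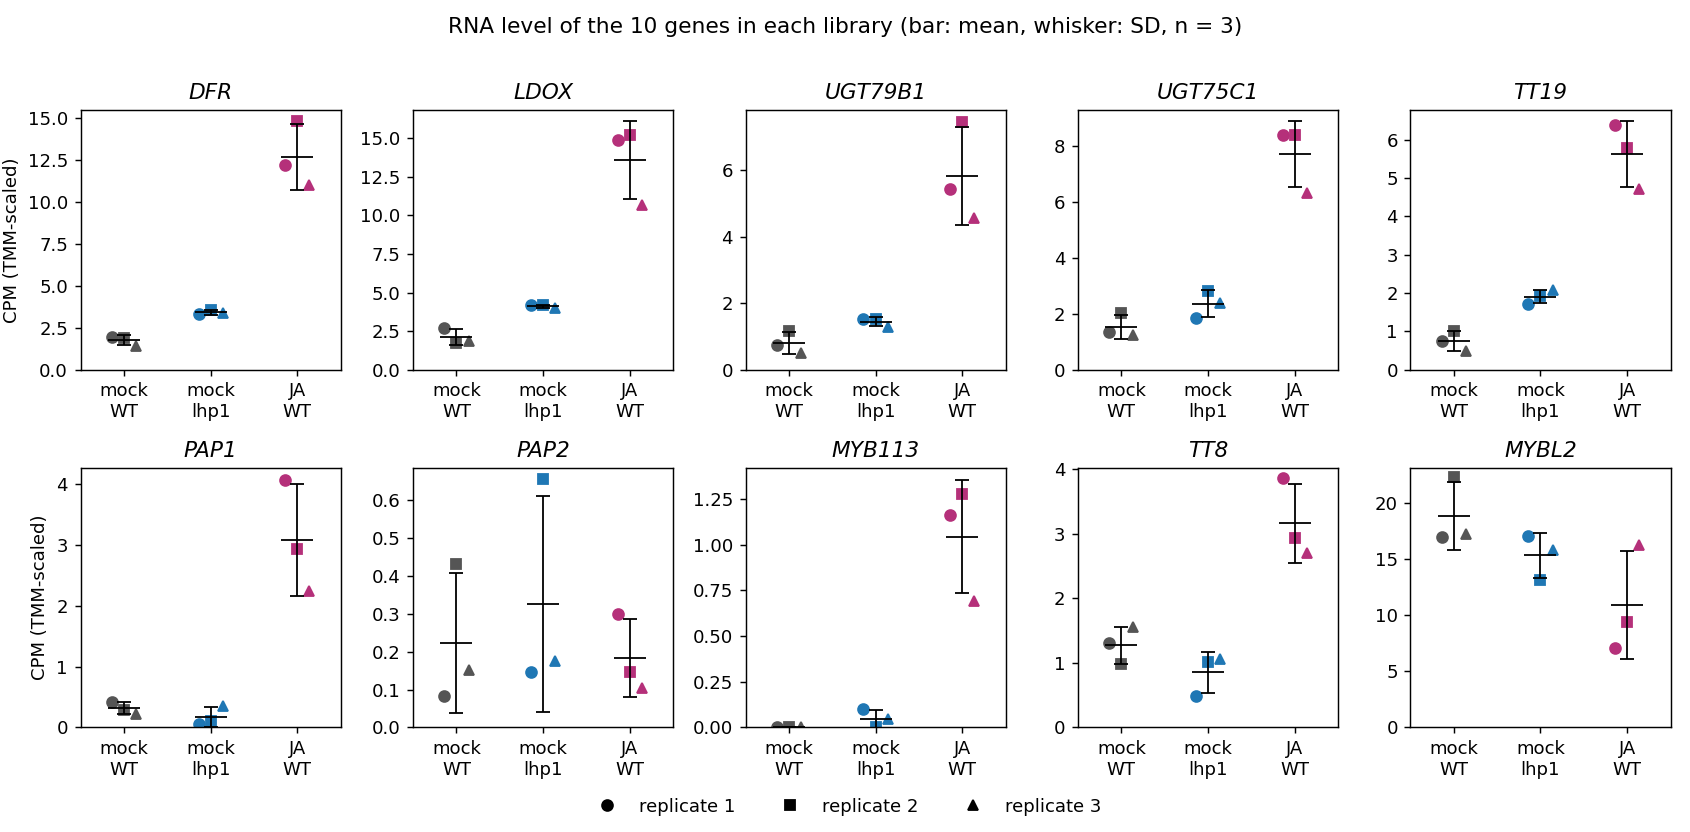
Level of each of the 10 genes in every library, in CPM on a linear axis that starts at 0, with symbols for replicates 1 to 3, a bar at the group mean and a whisker of 1 SD (n = 3). The 5 structural genes, PAP1, MYB113 and TT8 stand highest in JA WT, PAP2 stays under 1 CPM in all 9 libraries, and MYBL2 averages 18.9 CPM in mock WT and 10.9 CPM in JA WT, with 1 JA WT library at 16.3 CPM.

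Among the activators, PAP1, MYB113 and TT8 were called higher after jasmonate, while the PAP2 libraries overlapped between the groups. The MYB genes are close relatives, and their upstream windows are shown because their values differed. The sequences are from TAIR10.1, 5′ to 3′ on the strand of the gene, at chr1:21235293-21235542 (minus) for PAP1, chr1:24763691-24763940 (plus) for PAP2 and chr1:24753339-24753588 (plus) for MYB113. Capitals mark ACGTG, the core shared by the G-box and related elements, on either strand.
PAP1: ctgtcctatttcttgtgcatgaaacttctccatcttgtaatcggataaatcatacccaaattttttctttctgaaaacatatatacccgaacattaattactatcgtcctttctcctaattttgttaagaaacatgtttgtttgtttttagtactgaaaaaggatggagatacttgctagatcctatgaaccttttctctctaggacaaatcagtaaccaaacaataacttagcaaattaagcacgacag
PAP2: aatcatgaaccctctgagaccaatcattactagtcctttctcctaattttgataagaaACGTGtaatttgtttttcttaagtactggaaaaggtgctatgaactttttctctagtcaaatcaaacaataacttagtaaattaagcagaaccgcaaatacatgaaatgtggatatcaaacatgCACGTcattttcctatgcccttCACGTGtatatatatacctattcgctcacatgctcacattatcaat
MYB113: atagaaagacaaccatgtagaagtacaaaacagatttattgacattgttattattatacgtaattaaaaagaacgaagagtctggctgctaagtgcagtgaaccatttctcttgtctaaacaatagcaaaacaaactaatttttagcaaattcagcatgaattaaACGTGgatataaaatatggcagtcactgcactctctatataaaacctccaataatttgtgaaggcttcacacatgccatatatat

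The core ACGTG was absent from the PAP1 window, stood once in the MYB113 window and had 4 matches in the PAP2 window, of which 2 are the strands of 1 CACGTG. This core stands in 22.9% of all windows and in 5 of the 10 described here. The windows of PAP1 and MYB113 held ANCNNCC, with 1 and 2 matches, and that of PAP2 held none. This element stood in 9 of the 10 windows, that of MYBL2 included.

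PAP1 (AT1G56650, chr1:21233555-21235292, minus strand, 3 exons), also known as MYB75, is the main MYB activator of anthocyanin in seedlings. It had 10, 8 and 6 counts in mock WT, or 0.419, 0.289 and 0.226 CPM, and 95, 60 and 65 counts in JA WT, or 4.07, 2.94 and 2.25 CPM. No library overlapped, and the change of 3.30 ± 0.41 on the log2 scale (edgeR adjusted p = 0.000207, 95% interval 2.39 to 4.20) was 9.83-fold. MYB113 (AT1G66370, chr1:24753589-24754761, plus strand, 3 exons), a MYB activator able to raise anthocyanin when overexpressed, had 0 counts in each mock WT library and 27, 26 and 20 counts in JA WT. Over the groups this was 73 counts against 0. With the mock WT group set to a floor of 3 counts in sum, the bound was 26.2-fold, the 73 counts being taken as exact. The bound lay between 16.9-fold and 31.6-fold with any 1 of these 6 libraries left out, the lowest being without mock WT replicate 2 and the highest without JA WT replicate 3. Its edgeR adjusted p was 0.000456.

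PAP2 (AT1G66390, chr1:24763941-24765541, plus strand, 3 exons), named MYB90 in RefSeq and a near twin of PAP1 in function, had 2, 12 and 4 counts in mock WT and 7, 3 and 3 counts in JA WT. The groups overlapped in full, at 0.0837 to 0.433 CPM and 0.104 to 0.300 CPM. Fitted with no filter the change was −0.33 (edgeR adjusted p = 0.855), and at 18 and 13 counts in all a moderate difference was not detectable at this depth. PAP2 and MYB113 are neighbours on chromosome 1 with MYB114 between them, 2536 bases from MYB113 and 4987 bases from PAP2. MYB114, the other MYB activator of this family, was at 3 counts in the mock WT group and at 11 in the JA WT group, which is 3.94 times as high after scaling (exact 95% counting interval 1.04 to 22). That interval covers counting error and no other variation.

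The MYB genes are similar enough that reads could be assigned to the wrong one, so their sequences were compared. The coding sequence of PAP1 was identical to that of PAP2 at 84.3% of aligned bases and to that of MYB113 at 79.3%, and PAP2 and MYB113 matched at 82.1%. None of the 50-base windows in the exons of PAP1 or MYB113 recurred exactly elsewhere in the genome, against 4.44% in PAP2 and 3.63% in MYB114. The search counted exact copies only and missed windows a few bases apart, so wrong assignment itself was not measured. Summed over all 4 MYB genes, a total that no mix-up among them can change, the level was 0.544, 0.795 and 0.377 CPM in mock WT and 5.83, 4.51 and 3.08 CPM in JA WT. The summed level was thus higher in each JA WT library than in any mock WT library.

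TT8 (AT4G09820, chr4:6181881-6186523, plus strand, 7 exons), the bHLH partner of the complex, had the smallest called rise of the 10 genes. Mock WT had 1.30, 0.975 and 1.55 CPM of it and JA WT 3.86, 2.94 and 2.70 CPM. The groups did not overlap, and the change was 1.31 ± 0.28 (edgeR adjusted p = 0.00759, 95% interval 0.70 to 1.92). This interval lies below that of PAP1, which starts at 2.39, and the difference between the genes was not tested.

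MYBL2 (AT1G71030, chr1:26795052-26796532, minus strand, 2 exons), the single-repeat MYB repressor, was the only one of the 9 tested genes with lower values after jasmonate. Mock WT had 17.0, 22.4 and 17.3 CPM of it and JA WT 7.12, 9.37 and 16.3 CPM. The groups did not overlap, but JA WT replicate 3 lay close to the mock WT libraries. The change of −0.78 ± 0.24 did not pass (edgeR adjusted p = 0.0526, 95% interval −1.31 to −0.24). Of the 15 alternative analyses 7 called it lower, and without JA WT replicate 3 the change was −1.22 (edgeR adjusted p = 0.00118).

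In all, 8 of the 9 tested genes were called higher after jasmonate and 0 lower, where 8.62% of all tested genes were called higher and 7.07% lower. Among the 7 that would have passed the filter without JA WT, 6 were called higher. The same 8, PAP1 and MYB113 among them, had no overlap upward and MYBL2 none downward, against 16.2% and 13.9% of all tested genes. The median log2 fold change of the 9 was 2.84, also with MYB113 at its bound of 4.71, and that of all tested genes was 0. The 5 structural genes, which would all have passed the filter without JA WT, had a median of 2.84. No gene of the 10 turned its direction under another scaling.

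**Figure D2:**
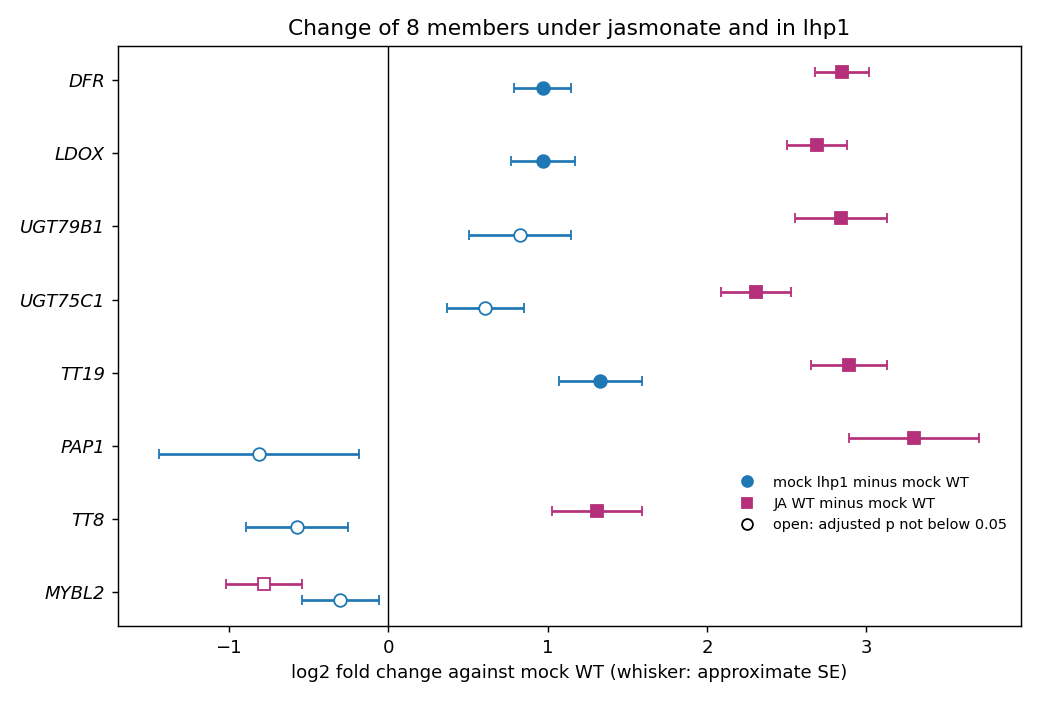
Log2 fold change against mock WT of the 8 genes with a fitted change that is not limited by 0 counts, for JA WT (squares) and mock lhp1 (circles), with whiskers of 1 approximate standard error and open symbols where the adjusted p was not below 0.05. Both comparisons share the mock WT libraries. The structural genes lie between 2.31 and 2.89 after jasmonate and between 0.61 and 1.33 in lhp1, while PAP1 and TT8 lie right of 0 after jasmonate and left of 0, with open symbols, in lhp1.

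Per kilobase of exon, the repressor gene was the most abundant of the 10 in untreated wild type. In mock WT, MYBL2 stood at 13.5 ± 2.18 RPKM (CPM per kilobase of exon; mean ± SD, n = 3). LDOX followed at 1.51 ± 0.380 and DFR at 1.15 ± 0.198 RPKM, then UGT75C1 at 0.930 ± 0.258, TT19 at 0.686 ± 0.237, TT8 at 0.636 ± 0.144 and UGT79B1 at 0.485 ± 0.204. PAP1 was at 0.281 ± 0.0887, PAP2 at 0.222 ± 0.185 and MYB113 at 0 RPKM. Neighbours in that order from LDOX down to PAP2 differed by less than their SDs summed. In JA WT the order changed: LDOX stood at 9.71 ± 1.80 and DFR at 8.33 ± 1.28 RPKM, beside MYBL2 at 7.84 ± 3.43, and these 3 did not differ beyond their spread. TT19 (5.14 ± 0.777), UGT75C1 (4.68 ± 0.723), UGT79B1 (3.53 ± 0.898) and PAP1 (2.78 ± 0.829) followed, with TT8 at 1.58 ± 0.305 and MYB113 at 1.11 ± 0.329 RPKM. In mock lhp1 MYBL2 was again the highest at 11 ± 1.42 RPKM, LDOX and DFR stood at 2.94 ± 0.0746 and 2.25 ± 0.0969, and PAP1 was at 0.151 ± 0.146 RPKM.

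In untreated lhp1 seedlings 3 of the 5 structural genes were higher than in wild type, and no activator was called in either direction. TT19 stood at 1.72, 1.92 and 2.07 CPM in mock lhp1, all above the 0.490 to 1.01 CPM of mock WT (1.33 ± 0.26, edgeR adjusted p = 0.00487). DFR was at 3.29, 3.58 and 3.39 CPM against at most 1.93 CPM in mock WT (0.97 ± 0.18, edgeR adjusted p = 0.00338). LDOX was at 4.17, 4.19 and 4 CPM against at most 2.72 CPM in mock WT (0.97 ± 0.20, edgeR adjusted p = 0.00635). These 3 rises were called in all 15 alternative analyses, and the mock lhp1 libraries lay close together, with a coefficient of variation of 4.45% for DFR and 2.51% for LDOX.

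The glycosyltransferase genes had higher means in mock lhp1 without passing the test. UGT79B1 was at 1.52, 1.51 and 1.28 CPM, above the highest mock WT library at 1.16 CPM (0.83 ± 0.32, edgeR adjusted p = 0.0829). UGT75C1 was at 1.86, 2.83 and 2.37 CPM and overlapped mock WT, whose replicate 2 stood at 2.02 CPM (0.61 ± 0.24, edgeR adjusted p = 0.0901). In both genes mock WT replicate 2 was the highest of its group. Without it the changes were 1.21 (edgeR adjusted p = 0.0182) and 0.86 (edgeR adjusted p = 0.0207), and all 5 structural genes were called. With scaling by total counts both were called as well. Over the 5 genes the summed level was 12.6, 14.0 and 13.1 CPM in mock lhp1, above the 5.51 to 7.84 CPM of mock WT and below the 37.3 to 51.6 CPM of JA WT.

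No activator was called in mock lhp1, and PAP2 and MYB113 had too few counts to show a moderate change. PAP1 had 1, 2 and 8 counts in mock lhp1, or 0.0490, 0.101 and 0.352 CPM, which overlapped mock WT (−0.81 ± 0.63, edgeR adjusted p = 0.374, 95% interval −2.20 to 0.58). Without mock lhp1 replicate 3, its highest library, the change was −1.97 (edgeR adjusted p = 0.0889). TT8 was at 0.490, 1.01 and 1.06 CPM and overlapped mock WT (−0.57 ± 0.32, edgeR adjusted p = 0.216, 95% interval −1.27 to 0.14). MYB113 had 2, 0 and 1 counts in mock lhp1 and 0 in mock WT, both at or under the floor of 3 counts, so no fold is given. PAP2 had 3, 13 and 4 counts, with the highest library again replicate 2 (0.48 with no filter, edgeR adjusted p = 0.689). MYBL2 was at 17.1, 13.2 and 15.8 CPM and overlapped mock WT (−0.30 ± 0.24, edgeR adjusted p = 0.390, 95% interval −0.83 to 0.23). The 4 MYB genes summed to 0.294, 0.808 and 0.616 CPM, within and around the mock WT range of 0.377 to 0.795 CPM.

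Of the 9 tested genes 3 were thus called higher in mock lhp1 and 0 lower, against a background of 11.1% higher and 14.4% lower. In 4 of the 9, DFR, LDOX, UGT79B1 and TT19, the mock lhp1 libraries lay above all mock WT libraries, where 21.4% of all tested genes did, and 0 of the 9 lay below them all, where 23.1% did. Other organ markers moved with the genotype. All 4 shoot markers were lower in mock lhp1, with summed levels of 7820 to 7990 CPM against 13600 to 18500 CPM in mock WT. Most of that sum was RBCS1A and CAB2, at 0.498 and 0.421 times their mock WT level. ATML1 and PDF1 fell less, to 0.645 and 0.853 times (PDF1 edgeR adjusted p = 0.0499). Of the root markers 2 of 3 were higher (87.4 to 106 against 54.4 to 87.2 CPM summed), and 2 of 3 floral markers were higher (197 to 200 against 27.9 to 117 CPM summed). After jasmonate no shoot or root marker was called, and 1 of the 3 floral markers was lower. Under the alternatives 3 or 4 shoot, 0 to 2 root and 2 or 3 floral markers were called in lhp1, with 0 root markers without mock lhp1 replicate 1 or 2. The upper end of the floral range in mock WT is replicate 2 alone, the others being at 29.2 and 27.9 CPM. After jasmonate the floral count ran from 0, with any JA WT library left out, to 3, without mock WT replicate 1 or 3, and the root count reached 2 without mock WT replicate 3. None of these markers was at 0. The jasmonate marker VSP2 was also higher in untreated lhp1, at 5.00, 2.93 and 3.56 CPM against 0.502, 1.99 and 0.264 CPM in mock WT (2.02 ± 0.45, edgeR adjusted p = 0.00868). Leaving out mock WT replicate 2 made this change 3.32. JAZ10 stood at 2.75 to 3.69 CPM against 2.56 to 3.14 CPM. The part of these markers in the result was not tested.

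Set directly against each other, JA WT had higher levels than mock lhp1 of all 5 structural genes and of PAP1, MYB113 and TT8. Genotype and treatment both differ between these groups. DFR differed by 1.88 ± 0.16, LDOX by 1.72 ± 0.18, UGT79B1 by 2.01 ± 0.27, UGT75C1 by 1.71 ± 0.22 and TT19 by 1.56 ± 0.22 on the log2 scale, with edgeR adjusted p between 7.17e-06 and 0.000231. For the activators the distance was larger in PAP1, at 4.11 ± 0.47 (edgeR adjusted p = 6.03e-05), and 1.88 ± 0.30 in TT8 (edgeR adjusted p = 0.000489). MYB113 was 21.1 times as high (73 against 3 counts, exact 95% counting interval 6.94 to 105). MYBL2 did not pass (−0.48 ± 0.25, edgeR adjusted p = 0.138), nor did PAP2 with no filter (−0.81, edgeR adjusted p = 0.453). These 8 of 9 genes called higher, with 0 called lower, stand beside 25.1% of all tested genes called higher and 20.3% called lower. Among the 7 that would have passed the filter without JA WT, 6 were called higher and 0 lower.

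Genes earlier in the pathway had smaller changes after jasmonate than the late genes, a difference that was not tested. Early flavonoid genes build the shared skeleton of flavonols and anthocyanins, and 1 of 6 was called higher after jasmonate, against 8.62% of all tested genes. This was CHI (chalcone isomerase, 0.41 ± 0.10, edgeR adjusted p = 0.0167), a call lost without JA WT replicate 1 or 2, with total counts and with the 2 groups alone. F3H was called as well without mock WT replicate 2 (0.57, edgeR adjusted p = 0.0193). CHS, the entry enzyme, was at 186 CPM in mock WT and 220 CPM in JA WT (0.24 ± 0.11, edgeR adjusted p = 0.174). The median of the 6 was 0.32, beside 2.84 for the 5 late structural genes. In mock lhp1, where 11.1% of all tested genes were called higher, 5 of the 6 were, with a median of 0.44, beside 0.97 for the late genes. They were led by F3'H (flavonoid 3'-hydroxylase, 0.85 ± 0.21), F3H (flavanone 3-hydroxylase, 0.77 ± 0.16) and CHS (0.46 ± 0.11). The count fell to 2 of 6 without mock lhp1 replicate 1, where CHIL, F3'H and FLS1 were not called (edgeR adjusted p = 0.0573, 0.0559 and 0.114), and to 3 without mock lhp1 replicate 2, where CHS (0.0543) and FLS1 (0.124) were not. FLS1 was also lost in 3 other fits with 1 library left out. F3H shares 1415 of its exon bases with an antisense gene, so its reads cannot be told apart from those of that gene without strand. Tested directly, FLS1 (flavonol synthase, −0.54) and CHIL (chalcone isomerase-like, −0.41) were lower in JA WT than in mock lhp1.

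Several genes for the first, general phenylpropanoid steps were called higher in each comparison, and both comparisons share the mock WT libraries. Of all tested genes 8.62% were called higher and 7.07% lower after jasmonate, and 11.1% and 14.4% in mock lhp1. After jasmonate 5 of 8 were higher and 0 lower, with the ligase genes 4CL2 at 0.84 ± 0.13 and 4CL1 at 0.58 ± 0.09, and the ammonia-lyase gene PAL1 at 0.45 ± 0.10 (edgeR adjusted p = 0.0119). The count was 3 without JA WT replicate 1 or 2 or with the 2 groups alone, where PAL1 and C4H were not called, and 2 higher and 1 lower with total counts, where PAL2 was lost too and PAL3 was lower (−0.33, edgeR adjusted p = 0.0158). PAL3 was also lower without mock WT replicate 2 (−0.32, edgeR adjusted p = 0.00726). In mock lhp1 6 were higher and 1 lower, including 4CL2 (0.57 ± 0.13) and PAL1 (0.53 ± 0.10), with PAL3 lower (−0.43 ± 0.09, edgeR adjusted p = 0.00775). Only 2 were higher without mock lhp1 replicate 1 or without replicate 2, where PAL2, PAL4, C4H and 4CL1 lost their calls, and 3 without mock WT replicate 3. The flavonol activator gene MYB12 was higher in mock lhp1 (0.61 ± 0.12, edgeR adjusted p = 0.00535) and not called after jasmonate, where no flavonol MYB gene of 2 tested was called. MYB111, the other flavonol MYB gene tested, had lower values in mock lhp1 with no overlap and did not pass (−0.81 ± 0.28, edgeR adjusted p = 0.0516), but 7 of the alternatives called it lower, among them DESeq2 (adjusted p = 0.0272) and the fit without mock WT replicate 2 (edgeR adjusted p = 0.0175).

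Genes that decorate anthocyanins with sugars and acyl groups split in 2 sets after jasmonate. Of 6 tested, 5 were higher and 0 lower, against 8.62% and 7.07% of all tested genes. The acyltransferase genes were in the range of the late genes: 5MAT, the malonyltransferase, went from 0.209, 0.506 and 0.641 CPM to 3.26, 5.98 and 3.12 CPM (3.14 ± 0.39, edgeR adjusted p = 0.000195). The coumaroyltransferase genes 3AT1 (3.07 ± 0.29) and 3AT2 (2.88 ± 0.26) rose by a similar amount, but 39.9% and 40.8% of their 50-base exon windows recur elsewhere in the genome, so their separate values are uncertain. UGT78D2, which glucosylates both flavonols and anthocyanidins, rose by 0.36 ± 0.08 and SCPL10 by 0.60 ± 0.14. Of these, UGT78D2 was not called with total counts, with the 2 groups alone or without JA WT replicate 1 or 2 (edgeR adjusted p = 0.0515 to 0.0741), and SCPL10 was not called without JA WT replicate 2 or 3 (0.0516 and 0.0593), so that 3 of 6 were left without replicate 2. In mock lhp1 2 of 6 were higher, against 11.1% of all tested genes. They were SCPL10 (0.58 ± 0.14, edgeR adjusted p = 0.0124, lost without mock lhp1 replicate 1 or 2) and UGT78D2 (0.40 ± 0.08). 5MAT was at 0.785 to 1.26 CPM there, with no overlap with mock WT, and did not pass (1.03 ± 0.45, edgeR adjusted p = 0.117).

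**Figure D3:**
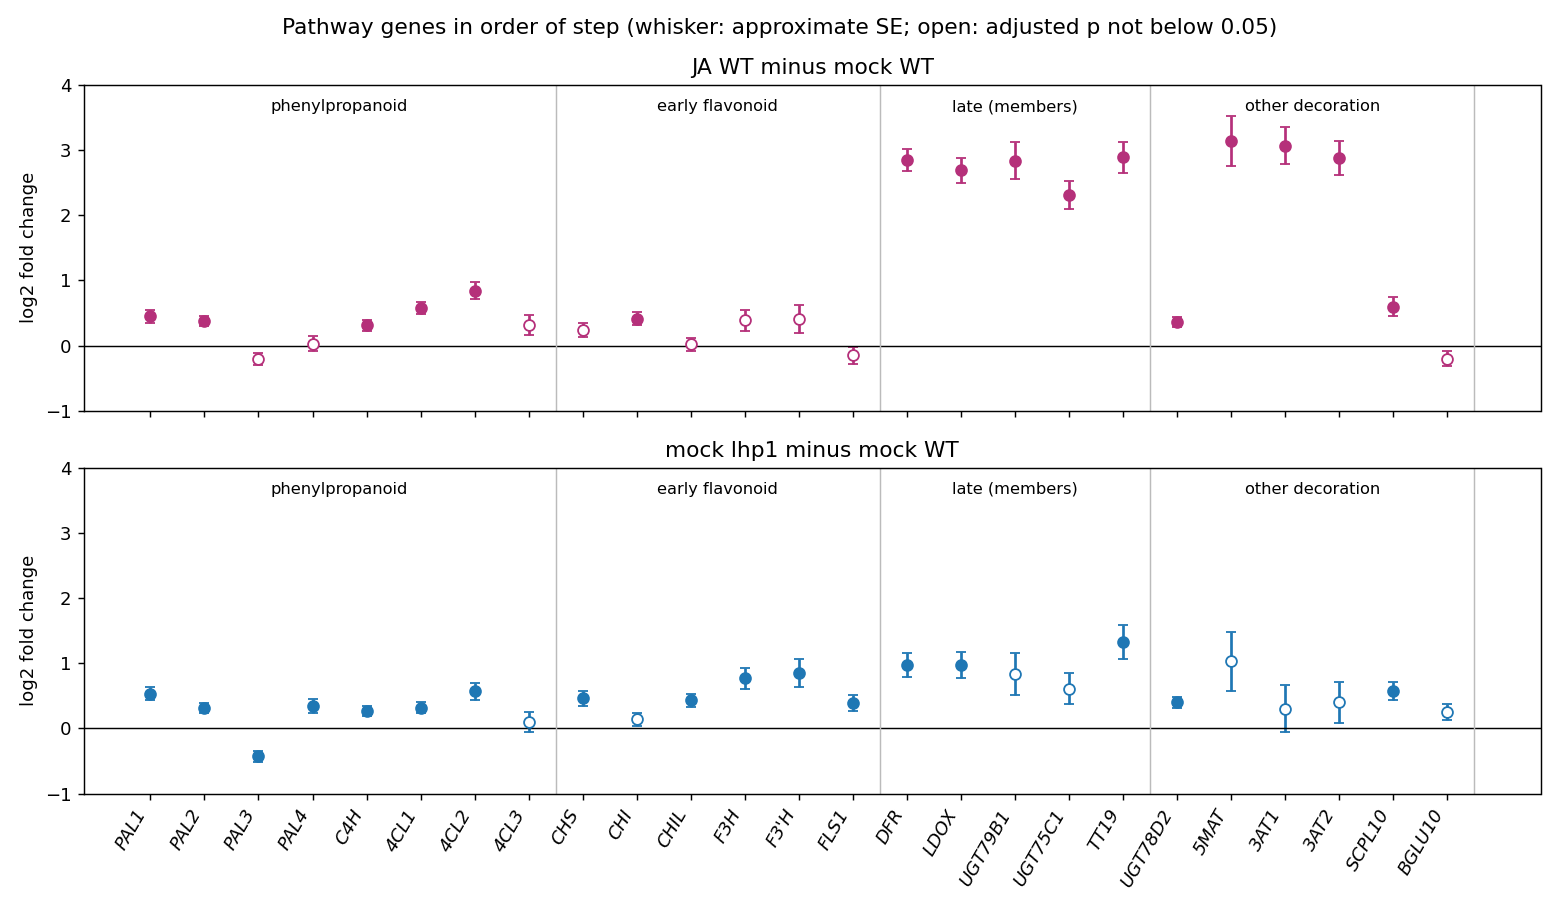
Log2 fold change of 25 pathway genes in order of step, for JA WT (top) and mock lhp1 (bottom) against the same mock WT libraries, with whiskers of 1 approximate standard error and open symbols where the adjusted p was not below 0.05. After jasmonate the late genes and the 3 acyltransferase genes stand between 2.31 and 3.14 while the phenylpropanoid and early flavonoid genes stay below 1, and in mock lhp1 all values lie between −0.43 and 1.33.

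The other parts of the MYB-bHLH-WD complex were not called after jasmonate. Of 4 tested, TTG1 changed by −0.11 ± 0.10 (edgeR adjusted p = 0.515), GL3 by 0.20 ± 0.22 (edgeR adjusted p = 0.620), EGL3 by 0.07 ± 0.10 (edgeR adjusted p = 0.692) and GL1, the trichome MYB, by −0.09 ± 0.24 (edgeR adjusted p = 0.850). The signs of EGL3 and GL1 turned in some alternatives, EGL3 with total counts and GL1 without JA WT replicate 2. In mock lhp1 EGL3, a bHLH relative of TT8, was higher (0.40 ± 0.10, edgeR adjusted p = 0.0141, lost without mock WT replicate 3 or mock lhp1 replicate 3), while TTG1 (0.14), GL3 (0.35) and GL1 (−0.26) did not pass. TT2, the seed-coat MYB, and MYB114 were too low to be tested. Of 10 other repressor genes tested edgeR called none in either comparison with mock WT, and 3 in each had an unadjusted p below 0.05. After jasmonate CPL3, MYB4 and LBD38 were called lower with total counts (−0.91, −0.44 and −0.35), and CPL3 and MYB4 with the replicate block (edgeR adjusted p = 0.0444 and 0.0224). Without mock WT replicate 2, CPL3 was called lower in both comparisons (−0.97 after jasmonate and −0.92 in mock lhp1, with edgeR adjusted p of 0.0245 and 0.0177) and MYB7 higher in mock lhp1 (0.52, edgeR adjusted p = 0.0153). Over all alternatives 0 to 3 were called lower after jasmonate and 0 to 3 higher in mock lhp1. DESeq2 called 0 after jasmonate and 1, MYB7, in mock lhp1 (adjusted p = 0.0380). MYB4 and MYB7 were lower in JA WT than in mock lhp1 (−0.56 and −0.63, edgeR adjusted p = 0.00181 and 0.00455).

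DFR, LDOX, TT19 and TT8 also serve the seed coat, where they make proanthocyanidins, so genes of that branch or its regulation were counted beside them. Of 7 such genes 3 were tested in the fit of all 9 libraries, and none was called after jasmonate. TT10, a laccase gene, was called higher in mock lhp1 (2.19 ± 0.72, edgeR adjusted p = 0.0446) with mock WT values of 0.335, 5.56 and 0.226 CPM. That call was lost with the 2 groups alone (edgeR adjusted p = 0.0829) and with any 1 library left out other than mock WT replicate 2. The summed level of the 7 ran from 5.15 to 11.1 CPM across mock WT, from 5.61 to 7.21 CPM across JA WT and from 15.5 to 15.9 CPM across mock lhp1. TT10 made up 9.15 to 9.95 CPM of that sum in mock lhp1 and 5.56 CPM of the highest mock WT sum, that of replicate 2. The regulator gene TTG2 made up 3.12 to 4.46 CPM of the sum in JA WT. TT12, a transporter gene of this branch that did not pass the filter over all 9 libraries, stood lower in mock lhp1, at 0.0505 to 0.0981 CPM against 0.361 to 0.528 CPM in mock WT. Without mock WT replicate 2, 4 of the 7 were tested, with 2 called higher and 1 lower in mock lhp1. TTG2 was called higher in mock lhp1 without that library (0.65, edgeR adjusted p = 0.0371) and with total counts (0.63, edgeR adjusted p = 0.0418). TT1 was at 0 in every library and BAN, the branch enzyme gene, had 3, 1 and 6 counts in the mock WT, JA WT and mock lhp1 groups.

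Within JA WT the genes shared the position of 1 library. Replicate 3 was the lowest of the group for all 8 genes called higher and the highest for MYBL2, a pattern chosen after its values were seen. For PAP1 it stood at 2.25 CPM against 2.94 and 4.07 CPM, and for MYB113 at 0.692 CPM against 1.16 and 1.28 CPM. Replicates 1 and 2 were each the highest for 4 of the 8, PAP1 and TT8 standing higher in replicate 1 and DFR and UGT79B1 in replicate 2. Over all 1809 genes called higher it was the lowest in 47.2%, and over all tested genes in 34.0%. These 8 genes share their libraries and are not independent observations. Among the mock WT libraries replicate 3 was the lowest for 5 of the 8, and mock lhp1 replicate 1 was the lowest of its group for 5 of the 8.

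**Figure D4:**
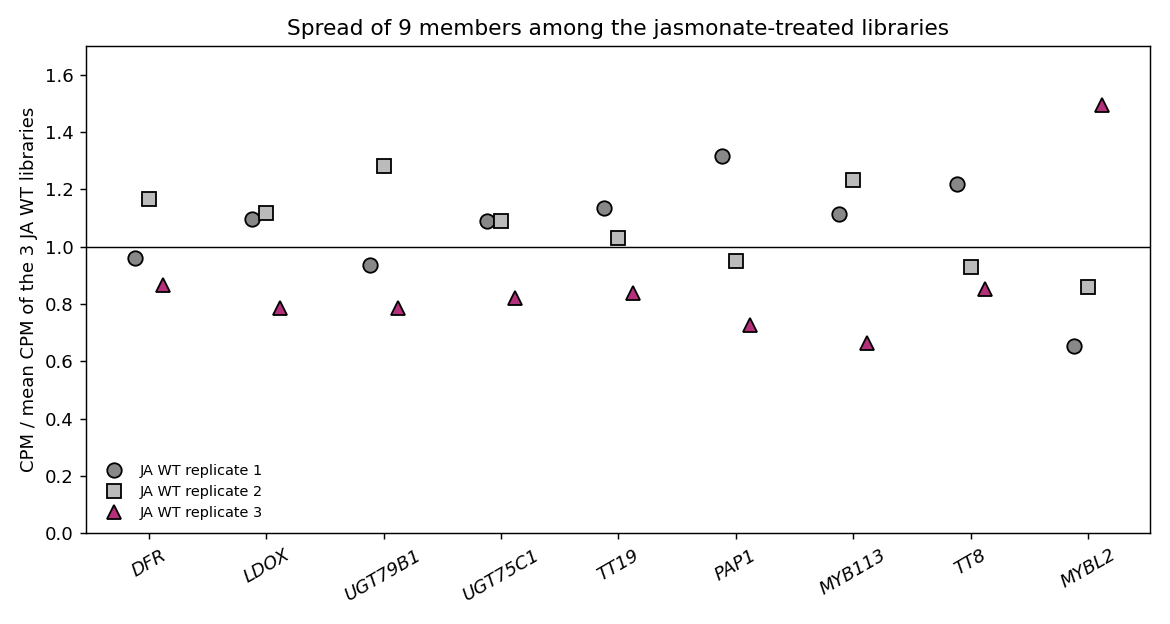
Level of 9 genes in each JA WT library divided by the mean of the 3 JA WT libraries, on a linear axis from 0, with a symbol for each replicate and a line at 1. Replicate 3 (triangles) lies below the other libraries for the 8 genes called higher and above them for MYBL2.

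The genes whose pattern over the 9 libraries was most like the mean of the 5 structural genes were ranked among the 19365 genes that averaged 1 CPM or more. Likeness was the root mean square difference of log2 CPM, centred for each gene and with a prior count of 2. The nearest were AT1G14120 (0.12), PAP7, a purple acid phosphatase gene unrelated to PAP1 (0.12), SDR4 (0.14), HMT3 (0.15), AT1G66800 (0.17) and IGMT5 (0.17). The structural genes themselves lay at 0.09 to 0.22, which their own part in that mean lowers. MYB113 was at 0.69, TT8 at 0.79, PAP1 at 1.02 and MYBL2 at 1.52, and the values of MYB113 and PAP1 rest on 0 to 10 counts a library outside JA WT. Most like PAP1 were ATCSLA15 (0.44), AT4G37850 (0.49), JAZ5 (0.50), AT2G34810 (0.51), WRKY40 (0.51) and MBP1 (0.52). The distances of the other genes from PAP1 ran from 0.81 for MYB113 and 0.95 for TT8 to 1.00 to 1.12 for the structural genes and 2.06 for MYBL2.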

How the data were processed

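Per the labels' protocols, polyadenylated RNA was selected from total RNA, made into libraries with a NEBNext kit and read on a NovaSeq instrument. The deposited values are counts of reads per gene in whole numbers, with no normalization by the authors. TopHat, HTSeq, edgeR and the build TAIR10 are named in the submitters' processing notes. Their versions, the use of strand and the handling of reads with several matches are not given in the sources used here. A further 3 columns of the table could be matched to none of the labelled samples and stayed out of every step. Replicates are numbered as in the titles.

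Deposited counts were fitted as they stand with edgeR 4.0.16 in R 4.3.3: filterByExpr with a minimum count of 10, TMM factors, 1 fit of all 9 libraries with a mean per group, glmQLFTest, two-sided, with Benjamini-Hochberg adjustment over 20986 genes. The procedure was tested on simulated data, with changes placed only in genes above a mean level that none of the 4 activators reached. That test thus does not cover genes as low as the activators. The biological coefficient of variation was 0.106. Replicates differed by more than sampling noise. Chi-square per degree of freedom was 2.47 to 3.68 between mock lhp1 libraries, 5.7 to 11.9 in JA WT and 20.8 to 37.9 in mock WT. Standard errors were derived as the absolute log2 fold change over the square root of F. CPM uses the TMM-scaled totals, RPKM adds the RefSeq exon length, and no level was compared between genes in CPM. Folds against 0 counts are bounds against a floor of 3 counts, with the counts of the other group taken as exact. Counting intervals cover counting error only, and bounds cover no variation between libraries. With 18081553 counts or more per library, 10 counts correspond to under 1 CPM. Positions and upstream windows come from RefSeq TAIR10.1, matched by locus for 32835 of 33602 genes, and windows were searched on both strands. Plots were made in Python 3.11.15 with matplotlib 3.10.9.

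The members, gene lists and tests were chosen with earlier results of these data known. Named by rule were all 10 members, up to 3 called genes of each other list and comparison with the largest change, the other parts of the MYB complex, CHS and TTG1, the check genes LHP1, JAZ10, VSP2 and SEP3, and the 6 genes most like each of 2 profiles. Markers and BAN, TT1 and TT2 were named to describe their lists, and genes named beside the alternatives, MYB111 and TT12 after their values were seen. The 15 alternatives were DESeq2 size factors, total counts, no filter, DESeq2 1.42.0, the 2 compared groups alone, a replicate block and each library left out. The MYB113 bound without each library was added after its 0 counts were seen.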

Additional observations from a re-analysis of the deposited data

How the results depend on the processing

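Of 427 values of the 10 genes under the alternatives, 413 kept their direction and their side of the threshold, 14 came to pass it (UGT79B1, UGT75C1 and MYBL2), and 0 lost it or turned. Members called lower after jasmonate went from 0 to 1 (MYBL2) with DESeq2 size factors, total counts, no filter, DESeq2 and the replicate block, and ranged from 0 to 1 over the fits that left out 1 library. Members called higher in mock lhp1 went from 3 to 5 with total counts and ranged from 3 to 5 with 1 library left out, 5 being without mock WT replicate 2. Members lower in JA WT than in mock lhp1 went from 0 to 1 with total counts and ranged from 0 to 1 with 1 library left out. Genes called between mock lhp1 and mock WT numbered 5344, and 3181 to 6866 with 1 library left out, with 3313, 3181 and 3525 without mock lhp1 replicates 1, 2 and 3, where fewer samples entered. Scaling by total counts moved the median log2 fold change over all genes by −0.122, 0.146 and −0.268 in the 3 comparisons (JA WT and mock lhp1 against mock WT, then JA WT against mock lhp1) and turned higher against lower calls from 1809 and 1483 to 1217 and 3034, from 2321 and 3023 to 5045 and 1878, and from 5270 and 4259 to 2515 and 9229. Pairing by number was looked at with the deviations of log2 CPM from the group mean of each gene. These correlated at 0.215, 0.031 and 0.133 between same-numbered JA WT and mock WT libraries, and from −0.201 to 0.085 between differently numbered ones. In the other pairs of groups they ran from −0.077 to 0.04 for the same number and from −0.104 to 0.105 for different numbers. The labels state no pairing, so the numbers were not taken to pair samples. With the replicate block 1880 and 1545, 2628 and 3173, and 5311 and 4342 genes were higher and lower, and UGT79B1 was called in mock lhp1 (0.87, edgeR adjusted p = 0.0271). PAP2 in the alternatives in which it was fitted ran from −0.89 to −0.02 after jasmonate and from 0.12 to 0.81 in mock lhp1, and was called in none. Counts of 2 to 13 per library limit PAP2, and of 1 to 10 limit PAP1 outside JA WT. The cause of these changes was not tested.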
